A study of Mus musculus with 4 samples.

Results

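The 28 protein-coding genes whose GENCODE symbols begin with Polr1, Polr2 or Polr3 and a letter encode subunits of RNA polymerases I, II and III (Pol I, Pol II and Pol III), and were chosen by symbol alone out of 55401 genes counted. RNA was measured by SMART-Seq2, a full-length cDNA amplification of polyadenylated RNA, in 4 libraries of E18.5 mouse fetal oocytes. In the ND group, 2 libraries came from fetuses of mothers kept on a normal diet, and in the HFD group, 2 libraries came from fetuses of mothers given a high-fat diet for 4 months. All mothers were ICR mice mated with males on the normal diet. Each library pooled oocytes of several fetuses, sorted from the ovary by the germ cell surface epitope SSEA-1, and the labels call the cells primordial germ cells. In such bulk libraries, fewer cells of a type and less RNA per cell cannot be told apart.

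Pol I transcribes the precursor of the large ribosomal RNAs, Pol II transcribes messenger RNAs, and Pol III transcribes transfer RNAs, 5S ribosomal RNA and other short RNAs. In each enzyme, a largest and a second largest subunit form the active centre, and small subunits common to the enzymes hold the core together. By these roles, 5 genes (Polr2e, Polr2f, Polr2h, Polr2k and Polr2l) encode subunits of all 3 enzymes, and 2 (Polr1c and Polr1d) encode the assembly pair that Pol I and Pol III share. The remaining genes were specific to Pol I (3 genes), Pol II (8 genes) or Pol III (10 genes). Polr2m, an associated regulator rather than a core subunit, fell in the Pol II class by its symbol. A fetal oocyte in meiotic prophase makes and stores RNA, and depends on all 3 enzymes for it.

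Promoter sequence from RefSeq (GRCm38.p6) is shown for 3 of the genes with an unadjusted p under 0.05 in edgeR: Polr2a and Polr2i, which lay at opposite ends of the fold changes, and Polr3e, a Pol III subunit with a tRNA-type motif before its start. A window of 250 bases before to 50 after a start was found for 22 of the 28 genes, in 24 windows. Capitals mark motif letters, which were searched on both strands and do not overlap in the stretches printed. The letters searched were TATAAA for the motif known as the TATA box and CCAAT for the motif of that name. For the GC box they were GGGCGG, and for the B box inside tRNA genes they were GTTCGANTC. Each stretch runs 5′ to 3′ on the gene's own strand and ends at the base before the gene's start. The Polr2a stretch is chr11:69758638-69758883 on the minus strand, that of Polr2i is chr7:30231824-30231947 on the plus strand, and that of Polr3e is chr7:120917528-120917743 on the plus strand.
Polr2a: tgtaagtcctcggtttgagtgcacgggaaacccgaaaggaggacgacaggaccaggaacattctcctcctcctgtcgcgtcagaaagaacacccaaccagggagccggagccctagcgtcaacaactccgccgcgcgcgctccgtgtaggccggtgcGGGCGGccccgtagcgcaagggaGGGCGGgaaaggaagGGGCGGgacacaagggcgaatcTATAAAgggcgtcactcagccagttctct
Polr2i: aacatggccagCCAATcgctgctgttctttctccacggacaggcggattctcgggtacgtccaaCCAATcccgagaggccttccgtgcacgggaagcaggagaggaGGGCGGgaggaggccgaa
Polr3e: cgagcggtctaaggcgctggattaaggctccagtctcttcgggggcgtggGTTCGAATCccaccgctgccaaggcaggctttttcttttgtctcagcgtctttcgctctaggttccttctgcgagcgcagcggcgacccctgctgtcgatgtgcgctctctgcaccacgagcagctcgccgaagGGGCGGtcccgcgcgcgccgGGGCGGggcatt
The Polr2a stretch held 1 TATA box and 3 GC boxes, the Polr2i stretch 2 CCAAT boxes and 1 GC box, and the Polr3e stretch 2 GC boxes and 1 tRNA B box. The GC box was found in 15 of the 24 subunit windows (62.5%), against 35.7% of all 32851 windows. The CCAAT box was found in 7 (29.2%, against 37.4%) and the TATA box in 2, of Polr2a and Polr2c (8.33%, against 13.6%). The B box letters occurred in 55 of all windows (0.167%), of which 1 was that of Polr3e. A match is a description of letters, not of a factor bound there.

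The libraries held 8223255 and 7815015 counts (ND replicates 1 and 2) and 6456825 and 5723605 counts (HFD replicates 1 and 2). Levels are given as CPM (counts-per-million), scaled by the library total. A count of 3, the limit that a count of 0 allows, was 0.365 to 0.524 CPM. Reads were without molecular identifiers, so limits and intervals cover counting error only. The TMM scaling factors were 1.02 and 0.940 for ND, and 0.692 and 1.51 for HFD, so the HFD libraries lay on either side of the ND libraries. Of 14 germ cell markers, 10 to 11 were above the background limit defined below in each library, and their summed level was 2298, 5607, 6319 and 2804 CPM in the order ND replicate 1, ND replicate 2, HFD replicate 1 and HFD replicate 2. That order is kept for every set of 4 values. Markers of other ovarian cells were uneven. The sum of 10 stromal markers was 2846, 70.6, 2223 and 7701 CPM, and that of 11 pregranulosa markers was 42.3, 416, 24.9 and 1168 CPM. That of 6 endothelial markers was 19.7, 70.1, 709 and 29.9 CPM, that of 7 macrophage markers was 20.6, 11.1, 13.5 and 40.9 CPM, and that of 7 blood markers was 1973, 2.18, 3.10 and 11.5 CPM. Single genes made most of some sums. Fst (383 CPM, ND replicate 2) and Amhr2 (1113 CPM, HFD replicate 2) were each the only pregranulosa marker at 50 CPM there. Kdr (681 CPM) was the only endothelial marker at 50 CPM in HFD replicate 1. Dazl was 1733 and 3770 CPM in ND. By contrast, 4 stromal markers reached 50 CPM in HFD replicate 2, and 3 blood markers in ND replicate 1.

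Diet was compared in one fit over 19335 genes, which kept 27 of the 28 subunit genes; Polr3gl was dropped by the filter on low counts. In this fit (edgeR's quasi-likelihood test, adjusted p under 0.05 and fold over 1.5), 0 subunit genes were called, as were 0% of all genes tested, and the subunits' adjusted p ran from 0.406 to 0.979. At an unadjusted p under 0.05, Polr2a and Polr2l were higher in HFD, 2 of 27 genes against 4.82% of all genes tested. Lower in HFD at the same limit were Polr2i, Polr2j and Polr3e, 3 of 27 genes against 6.41% of all. limma-voom also called none, and gave 5 subunit genes at an unadjusted p under 0.05: Polr1e, Polr2h, Polr2i, Polr2j and Polr2l. Polr2a and Polr3e were thus not among them, and the share of all genes at that limit was not computed for limma-voom. DESeq2, the tool of the study, fitted to all genes, gave an adjusted p to 20 subunit genes and called 10 of them at the same limits. It called 6 of these higher in HFD (Polr1d, Polr2a, Polr2d, Polr2e, Polr2l and Polr3gl), where 24.3% of its 5601 genes with an adjusted p were called higher. The other 4 were lower, Polr1b, Polr2i and Polr3b among them, where 21% of genes were called lower. The call therefore depended on the tool, for the subunits as for all genes. No source states that the replicates came from separate groups of mothers, so these p values measure the spread between these libraries.

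Of the 27 log2 fold changes (HFD over ND), 13 were above 0 and 14 below, with a median of -0.13 beside 0.03 over all genes tested. With scaling by library size alone, the median of all genes moved to 0.21 and that of the subunits was -0.22. The subunits' log2 fold changes had a median size of 1.68 against 0.70 over all genes, but the sets were not matched for level. At 50 CPM or more in at least 1 library were 14 of the 28 subunit genes and 3359 of 21897 protein-coding genes. Among those, the median fold of the highest library over the next was 21.1 and 19.97. Only Polr1c, Polr2b, Polr2g, Polr3a, Polr3c, Polr3d and Polr3g had log2 fold changes within 1 of 0. The share of all genes that change sign with a library left out was not computed. Among the subunits, 15 of 27 changed sign when 1 of the 4 libraries was left out. The other 12 kept their sign, among them Polr2i, Polr2a, Polr2j, Polr2k and Polr3e. Some values that changed sign lay near 0, such as that of Polr3a (0.11). With no share over all genes beside them, these counts are not read as a result about the subunits. Both HFD values were above both ND values for Polr1d, Polr2a and Polr2l, 3 genes where 13.9% of all genes tested had that order. Both were below for Polr2i, Polr2j, Polr2k, Polr3e and Polr3f, 5 genes where 13.4% of all had it. For the other 20 genes the diets overlapped. After TMM scaling, the same count was 2 above (Polr2a and Polr3c) and 6 below, among them Polr2c, Polr2i, Polr2j, Polr2k and Polr3e. The share over all genes was not computed after TMM scaling, so these 2 counts are not read as a result about the subunits.

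**Figure D1:**
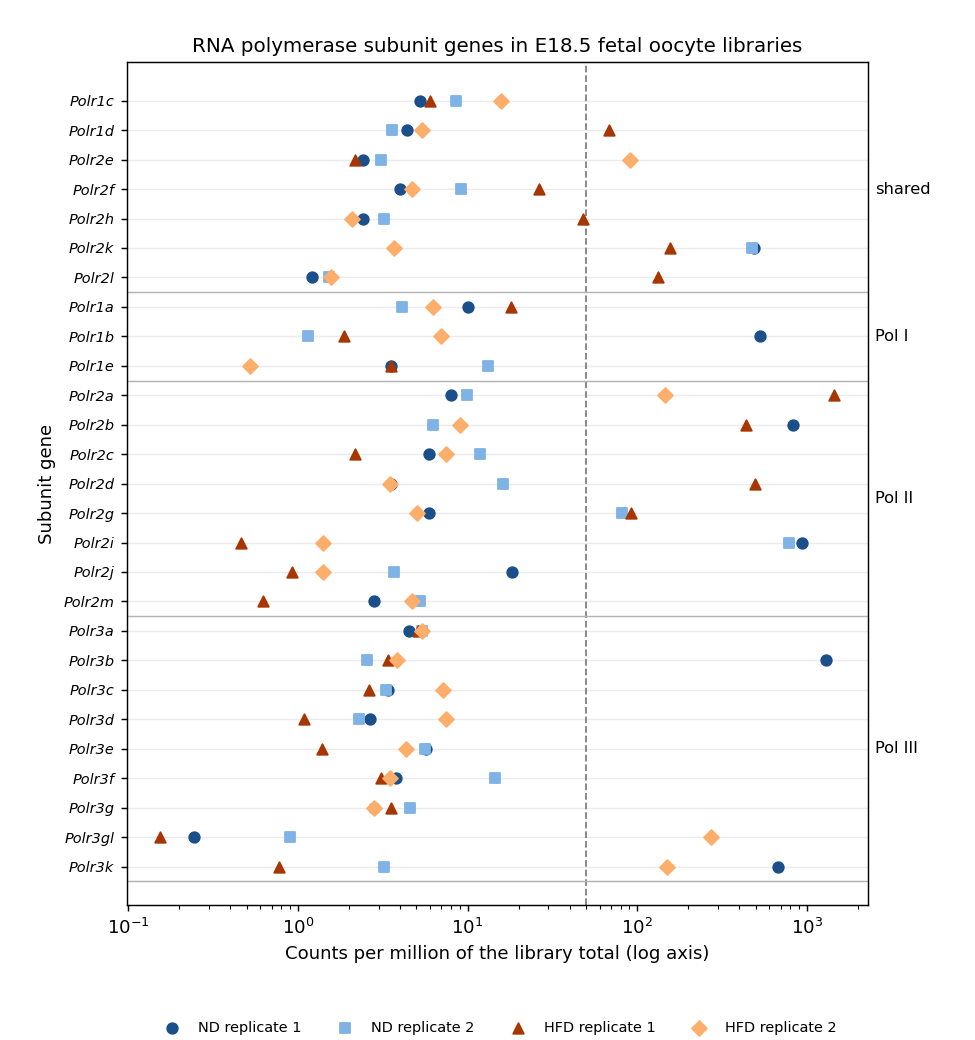
CPM (log axis) of 27 subunit genes, 1 point per library, with a dashed line at 50 CPM. Polr2i was past the line in both ND libraries, Polr2k in both ND libraries and HFD replicate 1, and Polr2a in both HFD libraries, whereas the other genes past it were so in 1 library, or, for Polr2b, Polr2g and Polr3k, in 1 library of each diet.

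Among the shared subunits, Polr2k, a small zinc-binding protein of the common core (ENSMUSG00000045996, chr15:36174010-36177010), was the most abundant in both ND libraries. Its counts were 4017, 3714, 1006 and 21, or 488, 475, 156 and 3.67 CPM. The ND values were close together (482 ± 9.37 CPM, SD, n = 2), while those of HFD (79.7 ± 108, n = 2) were far apart. Both HFD libraries were below both ND libraries, and the edgeR log2 fold change was -2.12 (SE 2.29, adjusted p = 0.765). It was -7.76 without HFD replicate 1 and -1.13 without HFD replicate 2. Reads of Polr2k could also fall on its pseudogene Polr2k-ps, which held 1, 1, 0 and 5 counts.

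Polr2l, the other small zinc-binding subunit of the core (ENSMUSG00000038489, chr7:141471860-141475132), had 10, 12, 862 and 9 counts, or 1.22, 1.54, 134 and 1.57 CPM. HFD replicate 1 alone was high. The second HFD value lay above both ND values only by a margin inside its 95% Clopper-Pearson interval of 0.719 to 2.98 CPM. The edgeR log2 fold change of 6.07 (SE 2.37, unadjusted p = 0.043, adjusted p = 0.406) was -0.54 without HFD replicate 1. Polr2h, another subunit of the common core, was also highest in HFD replicate 1, at 2.43, 3.20, 47.7 and 2.10 CPM, and Polr2f was 4.01, 9.21, 26.3 and 4.72 CPM. Polr2e, which takes part in the jaw that grips downstream DNA, was instead high in HFD replicate 2, at 2.43, 3.07, 2.17 and 91.0 CPM. Thus the shared subunits did not peak together: Polr2f, Polr2h and Polr2l were highest in HFD replicate 1, Polr2e in HFD replicate 2, and Polr2k in the ND libraries. HFD replicate 1, where Polr1d, Polr2a and Polr2d were also highest, had the highest sums of germ cell and of endothelial markers (6319 and 709 CPM), and 11 of 14 germ cell markers at 50 CPM or more against 3 or 4 in the other libraries. Kdr alone made 681 of the 709 CPM of endothelial markers. The part of these markers in the results was not tested.

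Polr1c and Polr1d form the heterodimer on which Pol I and Pol III assemble. Polr1c was 5.23, 8.57, 6.04 and 15.7 CPM, with overlapping diets and a log2 fold change of 0.43 (SE 0.58). Polr1d was 4.38, 3.58, 67.8 and 5.42 CPM, high in HFD replicate 1, with a log2 fold change of 3.63 (SE 1.63) that became -0.28 without that library. The pair thus differed in which library was highest. Of the 7 shared genes, 6 had a log2 fold change above 0 and Polr2k was the 1 below, with a median of 3.50. None passed the test, and each of the 6 had its highest value in 1 HFD library. With 1 library left out, Polr1c, Polr1d, Polr2f, Polr2h and Polr2l turned below 0. Polr2e fell to 0.15 without HFD replicate 2. The share of all genes with a log2 fold change above 0 was not computed.

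In Pol I, the largest subunit Polr1a, which holds much of the catalytic centre, had 83, 32, 117 and 36 counts, or 10.1, 4.09, 18.1 and 6.29 CPM. Its partner Polr1b, the second largest subunit, had 4368, 9, 12 and 40 counts, or 531, 1.15, 1.86 and 6.99 CPM. Polr1a differed by at most 4.43-fold between libraries, whereas 98.2% of the summed CPM of Polr1b was in ND replicate 1. The log2 fold change of Polr1b was -6.14 (SE 2.79, edgeR adjusted p = 0.406) and was 1.49 without ND replicate 1. Polr1e, which acts in initiation and elongation by Pol I, was highest in ND replicate 2 (13.2 CPM) and lowest in HFD replicate 2 (0.524 CPM), where it was at the limit of 3 counts.

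In Pol II, Polr2i and Polr2a separated the diets most. Polr2i, a small subunit that acts in start site choice and in cleavage of backtracked RNA (ENSMUSG00000019738, chr7:30231948-30233390, plus strand), had 7654, 6101, 3 and 8 counts. In CPM these were 931, 781, 0.465 and 1.40, with 95% Clopper-Pearson intervals of 910 to 952, 761 to 801, 0.096 to 1.36 and 0.603 to 2.75. Both ND libraries were high and both HFD libraries near the limit of counting. The ND mean of 856 ± 106 CPM (SD, n = 2) was 919 times the HFD mean of 0.931 ± 0.660 CPM (n = 2). The edgeR log2 fold change was -10.05 (SE 2.24, unadjusted p = 0.0039, adjusted p = 0.406), and it stayed between -10.30 and -9.96 as each library was left out. The diets differed by far more than the replicates did, but edgeR did not call Polr2i. In that edgeR fit, the smallest adjusted p over all 19335 genes was also 0.406. Exons of Polr2i share 325 bases, 26.8% of its exon length, with the opposite-strand gene Tbcb, a tubulin cofactor, and the library method does not keep strand. Tbcb had 6973, 28, 7008 and 26 counts, high in replicate 1 of each diet, and its part in the Polr2i result was not tested.

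Polr2a encodes the largest subunit, whose repeated C-terminal domain is phosphorylated through the transcription cycle (ENSMUSG00000005198, chr11:69733997-69758637, minus strand). Its counts were 66, 78, 9348 and 838, or 8.03, 9.98, 1448 and 146 CPM. Both HFD libraries were above both ND libraries, and the HFD libraries also differed from each other by 9.89-fold. The HFD mean of 797 ± 920 CPM (SD, n = 2) was 88.5 times the ND mean of 9.0 ± 1.38 CPM (n = 2). The edgeR log2 fold change was 6.88 (SE 2.57, unadjusted p = 0.040, adjusted p = 0.406) and was 3.29 without HFD replicate 1. Polr2b, the second largest subunit and partner of Polr2a in the active centre, did not share this order. It had 6831, 49, 2829 and 52 counts, or 831, 6.27, 438 and 9.09 CPM. It was high in replicate 1 of each diet, and its log2 fold change was -0.38 (SE 2.75), between -6.19 and 5.54 as each library was left out.

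Polr2j and Polr2c form the Pol II counterpart of the Polr1c and Polr1d pair. Polr2j (ENSMUSG00000039771, chr5:136116631-136122947) had 150, 29, 6 and 8 counts, or 18.2, 3.71, 0.929 and 1.40 CPM. Both HFD values were below both ND values, although the ND values differed by 4.92-fold. Its log2 fold change was -3.25 (SE 0.87, edgeR unadjusted p = 0.0088, adjusted p = 0.406) and ran from -4.01 to -1.85 as each library was left out. Its partner Polr2c was 5.96, 11.8, 2.17 and 7.51 CPM, with overlapping diets and a log2 fold change of -1.17 (SE 0.62). Both share exons with an opposite-strand gene, over 15.9% of the exon length of Polr2j (Lrwd1, with 46, 41, 8 and 17 counts) and 18.1% of that of Polr2c (Dok4). Lrwd1 was itself lower in both HFD libraries, and its part in the Polr2j result was not tested.

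Polr2d and Polr2g form the stalk, which binds RNA leaving the enzyme. Polr2d had 29, 127, 3191 and 20 counts, and 95.5% of its summed CPM was in HFD replicate 1. Polr2g had 49, 633, 596 and 29 counts, and was high in 1 library of each diet (81.0 CPM in ND replicate 2 and 92.3 in HFD replicate 1). Their highest library was the same, but Polr2g was nearly as high in an ND library. Polr2m ran from 0.620 CPM in HFD replicate 1 to 5.25 CPM in ND replicate 2. Over the 8 Pol II genes, 3 log2 fold changes were above 0 and 5 below, with a median of -0.70.

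**Figure D2:**
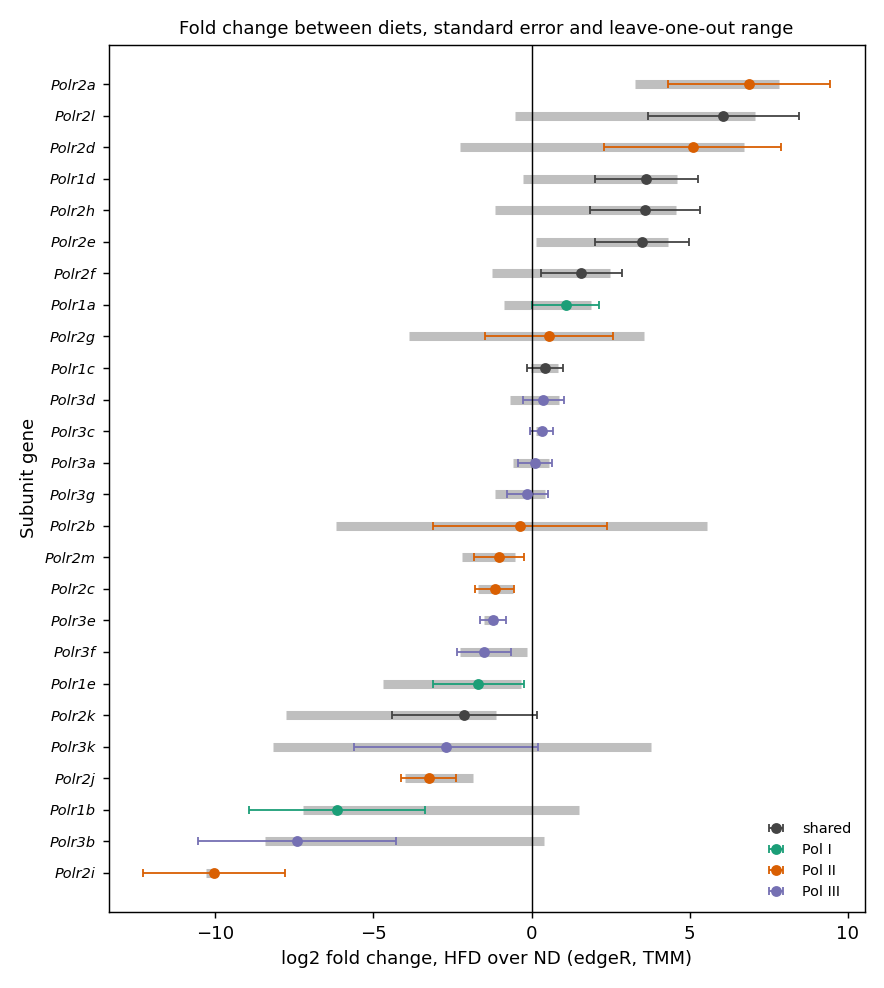
log2 fold change (HFD over ND, edgeR with TMM scaling) of 26 of the subunit genes tested, with bars of 1 SE and a grey band over the 4 fits that leave out 1 library each. The band crosses 0 for 15 genes. It is narrow for Polr3c (0.15 to 0.36), Polr2i (-10.30 to -9.96) and Polr3e (-1.52 to -1.10), among others.

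In Pol III, the largest subunit Polr3a was the most even of all 28 genes, with 37, 42, 33 and 31 counts, or 4.50, 5.37, 5.11 and 5.42 CPM, the highest 1.20 times the lowest. Its log2 fold change was 0.11 (SE 0.53). The second largest subunit Polr3b had 10648, 20, 22 and 22 counts, or 1295, 2.56, 3.41 and 3.84 CPM. A single library, ND replicate 1, held 99.2% of its summed CPM, and without it the log2 fold change went from -7.41 (SE 3.14, edgeR adjusted p = 0.406) to 0.39. In all 3 enzymes, the 2 subunits of the active centre had their highest values in different libraries, although the values of Polr3a hardly differed. How often other pairs of genes do so was not computed, so this is not read as a result about the subunits.

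Polr3k, which acts in RNA cleavage and termination (672, 3.20, 0.774 and 151 CPM), was also highest in ND replicate 1. Like Polr1b and Polr3b, it was highest in the library with the highest blood marker sum (1973 CPM, against 2.18 to 11.5 in the others), and its part in these results was not tested. The 5 hemoglobin genes among the blood markers were at 0 counts in at least 1 library. Polr3gl is the more widely used alternative to Polr3g, a subunit known from pluripotent cells. Polr3gl had 2, 7, 1 and 1568 counts, or 0.243, 0.896, 0.155 and 274 CPM, whereas Polr3g ran only from 2.80 to 4.61 CPM. Polr3gl was above the limit of 3 counts in ND replicate 2 and HFD replicate 2 and was abundant only in the latter, which also had the highest stromal and pregranulosa marker sums (7701 and 1168 CPM). Amhr2 alone made 1113 CPM of that pregranulosa sum, and no other pregranulosa marker reached 50 CPM there. The part of these markers in the Polr3gl value was not tested.

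Polr3e, which pairs with Polr3d and acts in initiation and termination (ENSMUSG00000030880, chr7:120917744-120947432), had the smallest standard error (SE) among the genes with an unadjusted p under 0.05. It had 47, 44, 9 and 25 counts, or 5.72, 5.63, 1.39 and 4.37 CPM. Both HFD values were below both ND values, but HFD replicate 2 was so by a margin within its interval of 2.83 to 6.45 CPM. Its log2 fold change was -1.23 (SE 0.41, edgeR unadjusted p = 0.024, adjusted p = 0.406), and with scaling by library size alone its unadjusted p was not under 0.05. Per kilobase it was above the background limit defined below in ND replicate 1 only. Polr3d, its partner, was highest in HFD replicate 2 (7.51 CPM) and lowest in HFD replicate 1 (1.08 CPM). Of the initiation subunits Polr3c, Polr3f and Polr3g, Polr3f was 3.77, 14.6, 3.10 and 3.49 CPM, with a log2 fold change of -1.50 (SE 0.85), so the order of its diets rested on a small margin over ND replicate 1. Polr3c ran from 2.63 to 7.16 CPM, both in HFD libraries. Of the 9 Pol III genes tested, 3 log2 fold changes were above 0 and 6 below, with a median of -1.23.

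Shared and enzyme-specific subunits were then compared as sums. The 7 shared genes together were 508, 504, 439 and 124 CPM, with a mean of 506 ± 2.67 CPM for ND against 282 ± 223 CPM for HFD (SD, n = 2 per diet), a log2 ratio of -0.85 (exact two-sided permutation test, p = 0.333, the smallest that 2 against 2 can give). Both HFD sums were below both ND sums, and the log2 ratio was -2.03 without HFD replicate 1 and -0.20 without HFD replicate 2. The Pol I genes summed to 545, 18.4, 23.5 and 13.8 CPM (log2 ratio -3.91, exact permutation p = 0.667). The Pol II genes summed to 1806, 915, 2477 and 179 CPM (log2 ratio -0.03, exact permutation p = 1). The Pol III genes summed to 2607, 49.4, 24.2 and 467 CPM (log2 ratio -2.43, exact permutation p = 0.667). In all 3 specific classes the diets overlapped. With TMM scaling, the Pol II log2 ratio was 0.42, and per kilobase of exon it was -0.93.

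In the shared, Pol I and Pol II classes, 1 gene made the larger part of the sum in most libraries. Of the shared sum, Polr2k made 96.1% (ND replicate 1), 94.2% (ND replicate 2) and 35.5% (HFD replicate 1), while Polr2e made 73.3% in HFD replicate 2. This is how the shared sum was lower in HFD while 6 of the 7 shared genes had log2 fold changes above 0. In the Pol II sum, Polr2i led in ND (51.5% and 85.3%) and Polr2a in HFD (58.5% and 81.8%). Polr1b made 97.5% of the Pol I sum in ND replicate 1, and Polr3gl made 58.6% of the Pol III sum in HFD replicate 2. The Pol III sum was spread more evenly in ND replicate 2 and HFD replicate 1, where its leading genes Polr3f and Polr3a made 29.5% and 21.2%. The shared genes' share of all subunit CPM was 9.30%, 33.9%, 14.8% and 15.8%, with means of 21.6% ± 17.4 for ND and 15.3% ± 0.71 for HFD (SD, n = 2 per diet, exact permutation p = 1). That share was both lowest and highest in an ND library.

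**Figure D3:**
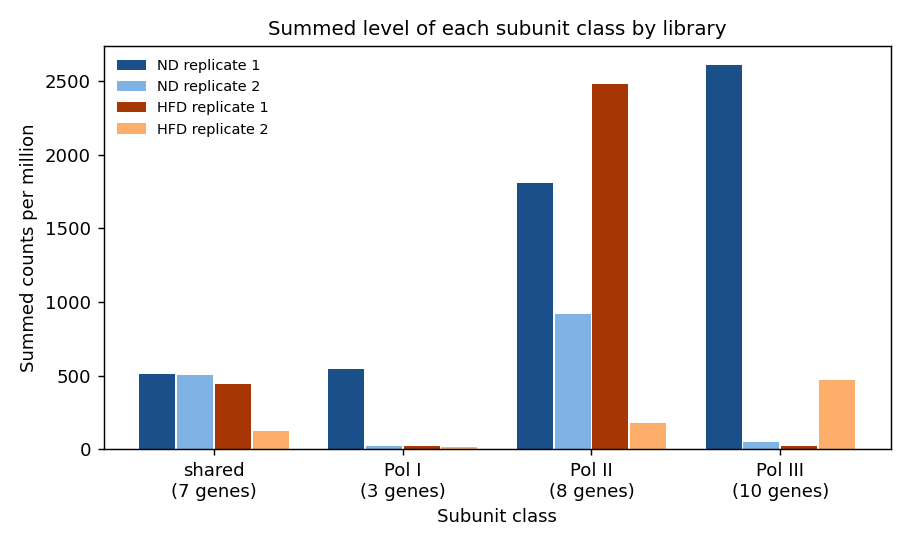
Summed CPM of each subunit class, 1 bar per library, with no error bars because each bar is 1 library. The shared sum was 439 to 508 CPM in 3 libraries and 124 CPM in HFD replicate 2, whereas the Pol III sum was 2607 CPM in ND replicate 1 and at most 467 CPM elsewhere.

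Levels between genes were compared per kilobase of exon. In CPM per kilobase, Polr2k (783 and 762) and Polr2i (768 and 644) led both ND libraries. Polr2d (487), Polr2k (250) and Polr2a (205) led HFD replicate 1, and Polr3gl (172), Polr3k (48.3) and Polr2e (34.1) led HFD replicate 2. The leading genes of the ND libraries were thus the same pair, and those of the HFD libraries differed. Background was set, after the data had been seen, at the 99th percentile of reads per kilobase over 1093 olfactory receptor genes, a family known from sensory neurons of the nose. It was 8.49, 8.99, 7.36 and 12.5 reads per kilobase, and a gene above it also had to exceed 3 counts.

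Above this limit were 18, 17, 11 and 9 of the 28 subunit genes (64.3%, 60.7%, 39.3% and 32.1%), against 24.8%, 22.2%, 13.5% and 15.3% of 21897 protein-coding genes. Polr1c, Polr2a, Polr2d, Polr2g and Polr2k were above it in all 4 libraries. Polr3a and Polr3c were above it in none, although they had 17 to 42 counts in each library. Their values were thus within the range of these receptors. Another 11 genes were above the limit in 1 library, 6 in 2 and 4 in 3. Counting shared genes in every enzyme that holds them, and only genes named Polr, Pol I had 6, 6, 7 and 3 of 10 genes above the limit, Pol II 10, 10, 8 and 5 of 12 (Polr2m left out), and Pol III 9, 8, 6 and 6 of 17, with the alternatives Polr3g and Polr3gl both counted. No library held all of these genes of any enzyme above the limit.

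**Figure D4:**
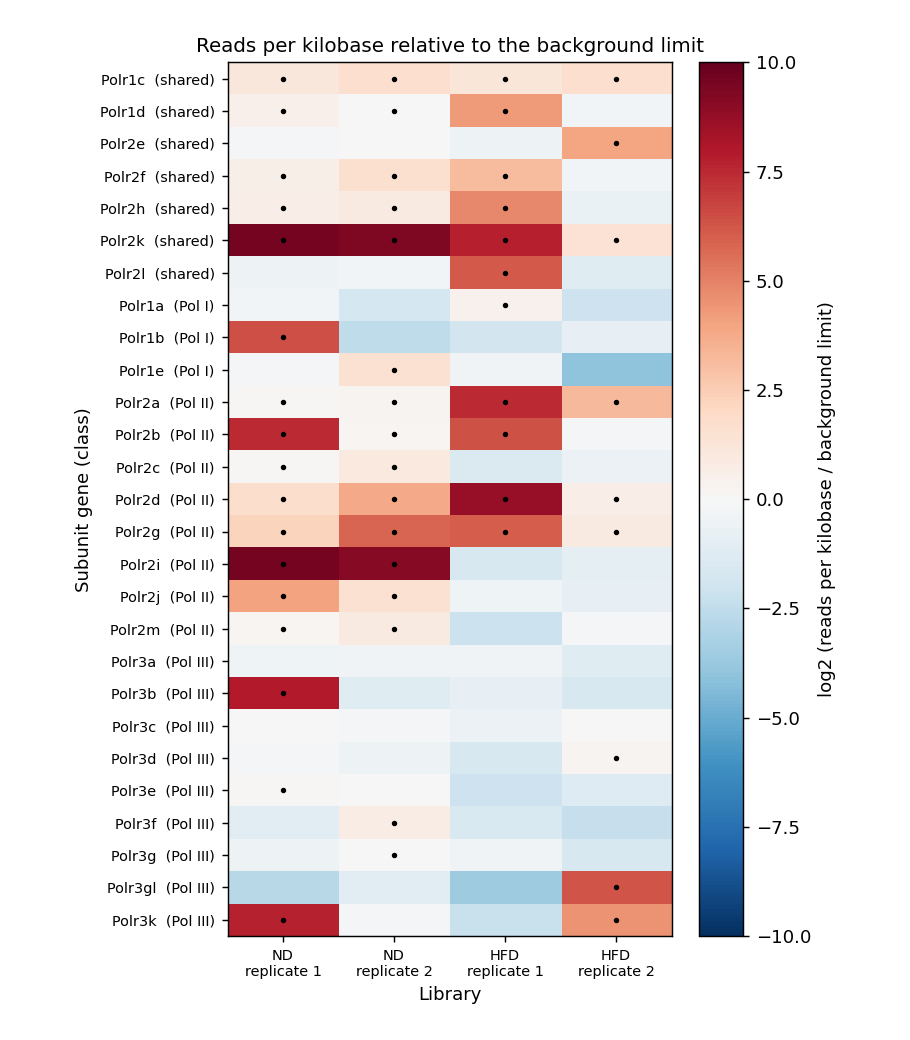
log2 of reads per kilobase over the background limit for 27 subunit genes (vertical axis) in 4 libraries (horizontal axis), with a dot where a gene was above the limit and had more than 3 counts. Dots fill all 4 columns for 5 genes and become fewer from the ND columns (17 and 16) to the HFD columns (11 and 9).

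At 50 CPM or more, 14 subunit genes were found in at least 1 library. Of these, 8 were so in exactly 1 library (among them Polr1b, Polr1d, Polr2d, Polr2e, Polr2l, Polr3b and Polr3gl), 5 in 2, and Polr2k in 3. None reached 50 CPM in all 4 libraries. Over the 3359 protein-coding genes at 50 CPM in at least 1 library, 70.8% were so in exactly 1, against 57.1% of the 14 subunits, and 2.92% were so in all 4. The median fold of the highest library over the next was 21.1 for the 14 subunits and 19.97 for the protein-coding genes. Values of this kind were therefore common to the libraries as a whole. The median subunit was at 4.86, 5.31, 3.48 and 5.24 CPM, and the median protein-coding gene at 2.55, 2.18, 1.55 and 3.49 CPM.

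**Figure D5:**
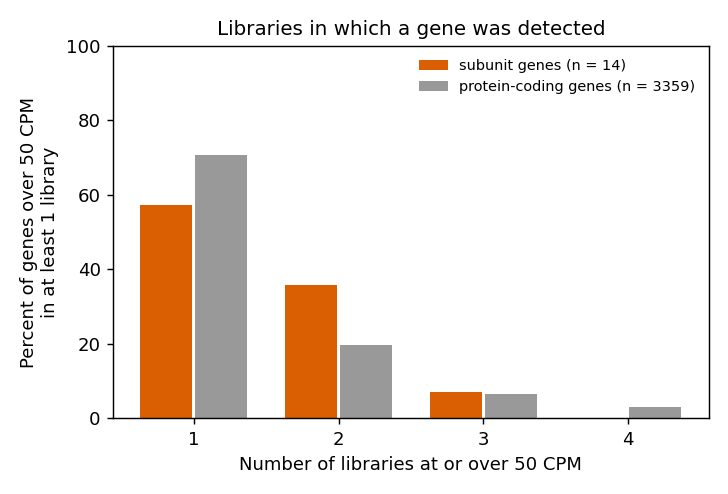
Percent of genes by the number of libraries in which they reached 50 CPM, among genes that did so in at least 1, for 14 subunit genes and 3359 protein-coding genes. Both sets are mostly in the bar for 1 library (57.1% and 70.8%).

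Genes that work with the polymerases were taken from fixed lists, and 0 of them were called by edgeR. Of 4 subunits under other symbols (Znrd1, Cd3eap and Twistnb of Pol I, and Crcp of Pol III), 1 log2 fold change was above 0 and 3 below, and Znrd1 alone had an unadjusted p under 0.05. Of 9 Pol I factors, 7 were above 0 and 2 below, with 0 at that limit in either direction. Rrn3, which brings Pol I to its promoter, was 83.2, 271, 1177 and 2551 CPM (log2 fold change 3.20, edgeR unadjusted p = 0.171). Both HFD values of Rrn3 were above both ND values. Of 26 general factors of Pol II, 11 were above 0 and 15 below, with Gtf2f1 higher and Supt4a, Ccnh, Gtf2h2 and Ercc3 lower at an unadjusted p under 0.05. Beside these counts and those of the lists below, 4.82% of all genes tested were higher and 6.41% lower at that limit. Gtf2f1 was high only in HFD replicate 1 (576 CPM), Ccnh only in ND replicate 2 (744 CPM) and Gtf2h2 only in ND replicate 1 (221 CPM). Ercc3 was at 4.74 CPM or less.

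Supt4a, a subunit of the elongation factor DSIF that binds Pol II, was 1805, 2344, 1.39 and 4.89 CPM. Its order was that of Polr2i, high in both ND libraries and low in both HFD libraries (log2 fold change -9.65, edgeR unadjusted p = 0.0095, adjusted p = 0.406). Of 16 Pol III factors tested, 12 were above 0 and 4 below. Snapc2 and Gtf3c6 were higher at the unadjusted limit, and both were high only in HFD replicate 1 (3393 and 796 counts). Of 11 assembly and import factors, 3 were above 0 and 8 below, with Gpn2 lower at the unadjusted limit.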

How the data were processed

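RNA from 2 ND and 2 HFD pools of sorted E18.5 fetal oocytes was amplified by SMART-Seq2. Per the study's methods, the authors used FastQC for quality control, Trim Galore for trimming, HISAT2 for alignment (mm10) and featureCounts for counting per gene; the deposited values were raw counts, 1 column per sample. The annotation release, strand setting and handling of multiply mapped reads were not given in the sources used here. Of 55401 Ensembl identifiers, 55141 matched GENCODE M21 (GRCm38), which gave symbols, biotypes, exon lengths and overlaps.

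Counts were tested with edgeR 4.0.16 (R 4.3.3): filterByExpr, TMM scaling, quasi-likelihood fit with diet as the only term, and Benjamini-Hochberg adjustment over 19335 genes. A call needed an adjusted p under 0.05 and a fold over 1.5, the limits of the study. The SE given with an edgeR log2 fold change is its size divided by the square root of the quasi-likelihood F statistic. It was therefore derived from the test and was not a fitted standard error. CPM used library totals of 5723605 to 8223255 counts. Sums and shares were compared by exact two-sided permutation tests, which cannot go below p = 0.333 here. Intervals were 95% Clopper-Pearson. Alternatives were RLE scaling, library size only, other count filters, edgeR's legacy fit, limma-voom 3.58.1, DESeq2 1.42.0, a replicate block, TMM or per-kilobase sums, Polr1c and Polr1d counted in Pol I, and leaving out each library.

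Every subunit gene enters the counts and sums; 1 is not reported here by name or drawn in the plots by gene. Values in every library are given for shared subunits, the 2 largest subunits of each enzyme, genes with an unadjusted p under 0.05, and genes whose HFD values both lay on one side of both ND values; the rest are given by ranges or counts, and related genes as counts with the named exceptions. Values in every library for Polr2c, Polr2d, Polr2g, Polr3gl, Polr3k and Rrn3 were added after they had been seen. The symbol rule used no measured value, but it and the gene lists were proposed with earlier results of these data known. Promoter windows came from RefSeq (GRCm38.p6), and none is shown for genes without an entry.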

Additional observations from a re-analysis of the deposited data

How the results depend on the processing

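The count of subunit genes called was 0 with edgeR under every scaling, filter and left-out library tried and with limma-voom, but 10 with DESeq2 on all genes, 9 with DESeq2 on the genes edgeR kept, and 3 with a replicate block in DESeq2 (Polr2a, Polr2i and Polr2k); the cause was not tested. At an unadjusted p under 0.05 the count of 5 became 3 with a minimum of 10 counts in every sample, 3 with the legacy fit of edgeR, and 12 and 11 with DESeq2 on all and on the kept genes. Replicate numbers are shared between the diets, but the labels name no shared litter. The differences between replicates 1 and 2 correlated across 19335 genes by r = 0.021 between diets. With many genes high in 1 library only, this value cannot tell whether samples of the same number were handled together. With the replicate block, edgeR called 0 and gave 4 at the unadjusted limit, and DESeq2 gave 7. Shares over all genes were computed for the first edgeR fit (4.82% higher and 6.41% lower at the unadjusted limit). They were also computed for calls by DESeq2 on all genes (24.3% higher and 21% lower). The counts from the other fits have no such share beside them and are not read as results about the subunits.

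The Pol II sum changed from -0.03 to 0.42 (log2) with TMM. Per kilobase, the log2 sums were -1.80 (shared), -4.39 (Pol I), -0.93 (Pol II) and -1.35 (Pol III), and the shared share differed by -17.6 percentage points (41.6% in ND, 23.9% in HFD) in place of -6.28. With Polr1c and Polr1d counted in Pol I, the Pol I sum was -2.14, the shared sum -1.08 and the share difference -8.37. With each library left out, log2 sums ran from -2.03 to -0.20 for the shared genes (main -0.85), -4.87 to 0.019 for Pol I, -2.93 to 0.86 for Pol II and -5.78 to 2.31 for Pol III, and the difference in shared share from -18.6 to 6.03 percentage points. The sum of Pol I and of Pol III turned positive without ND replicate 1, and that of Pol II without ND replicate 1 (0.54) or HFD replicate 2 (0.86). The median log2 fold change was -1.15 without HFD replicate 1, and -0.24 to 0.31 under the other settings.

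Among single genes, Polr2b was 0.18 with limma-voom, Polr2g -0.075 and -0.14 with the block in edgeR and DESeq2, and Polr3a -0.0069 with the minimum of 10 counts and -0.022 with the block in DESeq2. With each library left out, the log2 fold changes that turned sign ran from -0.88 to 1.87 (Polr1a), -7.22 to 1.49 (Polr1b), -0.0020 to 0.84 (Polr1c), -0.28 to 4.59 (Polr1d), -6.19 to 5.54 (Polr2b), -2.26 to 6.71 (Polr2d), -1.23 to 2.47 (Polr2f), -3.87 to 3.56 (Polr2g), -1.15 to 4.57 (Polr2h), -0.54 to 7.08 (Polr2l), -0.60 to 0.54 (Polr3a), -8.44 to 0.39 (Polr3b), -0.69 to 0.87 (Polr3d), -1.14 to 0.43 (Polr3g) and -8.19 to 3.78 (Polr3k). A fit with 1 library in a diet assumes that it varies like the other diet. Depth limited the low values: Polr3gl had 1 to 7 counts in 3 libraries, and Polr2i 3 and 8 in HFD.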

Other observations

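Each polymerase has a small subunit that acts in cleavage of the RNA in a stalled enzyme: Znrd1 in Pol I, Polr2i in Pol II and Polr3k in Pol III. These 3 related genes each reached 50 CPM in at least 1 library. So did 14 of the 28 subunit genes and 3359 of 21897 protein-coding genes. Znrd1 had 9, 15, 9837 and 11 counts (ND replicates 1 and 2, then HFD replicates 1 and 2), or 1.09, 1.92, 1524 and 1.92 CPM. Polr2i had 7654, 6101, 3 and 8 counts, and Polr3k had 5528, 25, 5 and 863 counts. Znrd1 was high only in HFD replicate 1, and Polr2i only in the ND libraries. Polr3k was high in 1 library of each diet. Its highest library, ND replicate 1, was also that of Polr2i, which was 931 and 781 CPM in the ND libraries. The edgeR log2 fold change of Znrd1 was 9.44 (SE 3.72, unadjusted p = 0.045, adjusted p = 0.406). No test of the difference between these genes was made.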
